A study of Rattus norvegicus with 6 samples.

Results

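Mx, Ifit and the other antiviral effectors described here are proteins that act on viruses directly once interferon has switched their genes on. The 10 genes Mx1, Mx2, Ifit1, Ifit2, Ifit3, Rsad2, Ifi44, Ifi44l, Rtp4 and Bst2 make up the set, and each was read from the array probe set (transcript cluster) annotated with that gene symbol alone, taking the brightest over the 6 arrays where a gene had several. Of the 10, 9 were measured, each by 1 cluster, among 18166 genes in all. No cluster used here carried Bst2, the membrane protein tetherin that holds budding virus on the cell surface, and it has no value. Whole spleens came from 6 male Sprague-Dawley rats. In 3 of them the portal vein was narrowed to a set width by partial portal vein ligation (PPVL), a model of portal hypertension without cirrhosis, and 3 had a sham operation, in which the vein was freed but not tied. All 6 spleens were taken 10 days after surgery, the labels name no other treatment and no age, and about 50 mg of tissue was extracted per rat. The total RNA of each spleen went to an Affymetrix array of its own.

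In infected cells, sensors of viral nucleic acid start the production of type I interferon, which binds its receptor on the same and on neighbouring cells. The receptor acts through JAK kinases, and transcription factors such as IRF9 then bind the interferon-stimulated response element, a sequence in the promoters of many genes. Many of these genes are also expressed at a low level without infection, and the spleen, which filters blood and holds B cells, T cells, natural killer cells, macrophages and dendritic cells, expresses them at rest.

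The values are log2 intensities after Robust Multiarray Average (RMA) processing, so that a difference of 1 is a doubling. Array medians lay between 6.22 and 6.33 and the lowest correlation between 2 arrays was 0.984. Genes that define spleen tissue were well expressed in all rats. The mean level of the B cell gene Ms4a1 lay at percentile 98.7 of all clusters and that of Slc40a1, the iron exporter of red pulp macrophages, also at percentile 98.7. Tlx1, a transcription factor of spleen stroma, lay at percentile 80.2. One sample stood apart. The mean of 11 exocrine pancreas genes was 10.71 in PPVL rat 1, against 5.65 and 5.58 in the other PPVL rats and 5.53 to 5.65 in the sham rats. Without PPVL rat 1, 7 of the effectors were still lower at an unadjusted p under 0.05 in limma, where 168 of all 18166 genes were lower.

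The interferon-stimulated response element was searched in the promoter windows that RefSeq gives for these genes on the GRCr8 assembly, since it is the site through which interferon acts on such genes. The motif was TTTCNNTTTC, or GAAANNGAAA on the other strand, where N is any base, and the window ran from 250 bases before to 50 bases after the transcription start. Windows were at hand for 6 of the 10 genes, and 5 of these 6 held the motif, against 3.92% of all 33469 windows and 4.12% of all 27457 genes with a window. The 10 genes were chosen as interferon-induced effectors, so a high share describes the choice. Stretches of 150 bases are shown for the measured genes that held it, 5′ to 3′ on the gene's strand with the motif in capitals. That of Ifit3 is from chr1:241527212-241527361 (plus strand), that of Ifi44 from chr2:243303791-243303940 (minus strand), that of Ifi44l from chr2:243328578-243328727 (plus strand) and that of Rsad2 from chr6:48788188-48788337 (minus strand).
Ifit3: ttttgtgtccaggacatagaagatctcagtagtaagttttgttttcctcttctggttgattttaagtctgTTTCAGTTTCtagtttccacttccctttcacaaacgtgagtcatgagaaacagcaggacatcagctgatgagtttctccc
Ifi44: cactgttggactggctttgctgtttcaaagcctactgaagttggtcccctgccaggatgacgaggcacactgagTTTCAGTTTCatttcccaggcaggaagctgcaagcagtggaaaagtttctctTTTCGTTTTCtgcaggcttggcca
Ifi44l: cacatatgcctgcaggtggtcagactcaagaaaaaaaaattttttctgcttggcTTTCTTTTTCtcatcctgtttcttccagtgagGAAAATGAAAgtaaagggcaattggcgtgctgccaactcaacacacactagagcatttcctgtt
Rsad2: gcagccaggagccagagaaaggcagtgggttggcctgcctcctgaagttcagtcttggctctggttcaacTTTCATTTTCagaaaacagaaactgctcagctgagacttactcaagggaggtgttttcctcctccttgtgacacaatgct

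In Ifit3 the motif began 44 bases before the start and in Rsad2 147 bases before it. Ifi44 held it 26 bases before and again 26 bases after the start, and Ifi44l held it 91 and 59 bases before. The window of Bst2 held 2 overlapping matches, at 131 and 125 bases before the start, and that of Mx1 held none. A match describes letters in a window and does not show binding in these spleens.

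Most of the effectors were lower in the spleens of PPVL rats. Of the 9 measured genes, 7 fell at the threshold of the study's methods, an unadjusted p under 0.05 in limma, and 0 rose, where 1.55% of all 18166 genes were lower and 2.69% higher by the same rule. The 7 were Mx1, Mx2, Ifit2, Ifit3, Ifi44, Ifi44l and Rtp4, and sham levels were between 1.42-fold and 1.81-fold those of PPVL spleens. In the same 7 genes all 3 PPVL values lay below all 3 sham values, which held for 4.7% of all genes. All 9 log2 differences were negative, with a median of -0.64, where the median of all genes was 0.00. After Benjamini-Hochberg adjustment over all genes, no effector and 0% of all genes passed a threshold of 0.05, and the effectors' adjusted p ran from 0.663 to 0.996. At the unadjusted threshold 769 genes were called in either direction, where 908 are expected with no difference at all. With 3 rats per group, 0.1 is the smallest two-sided p that exact permutation of one gene's values allows. No label says that the rats were operated on in separate sessions, and the tests measure the spread between these 6 rats.

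**Figure D1:**
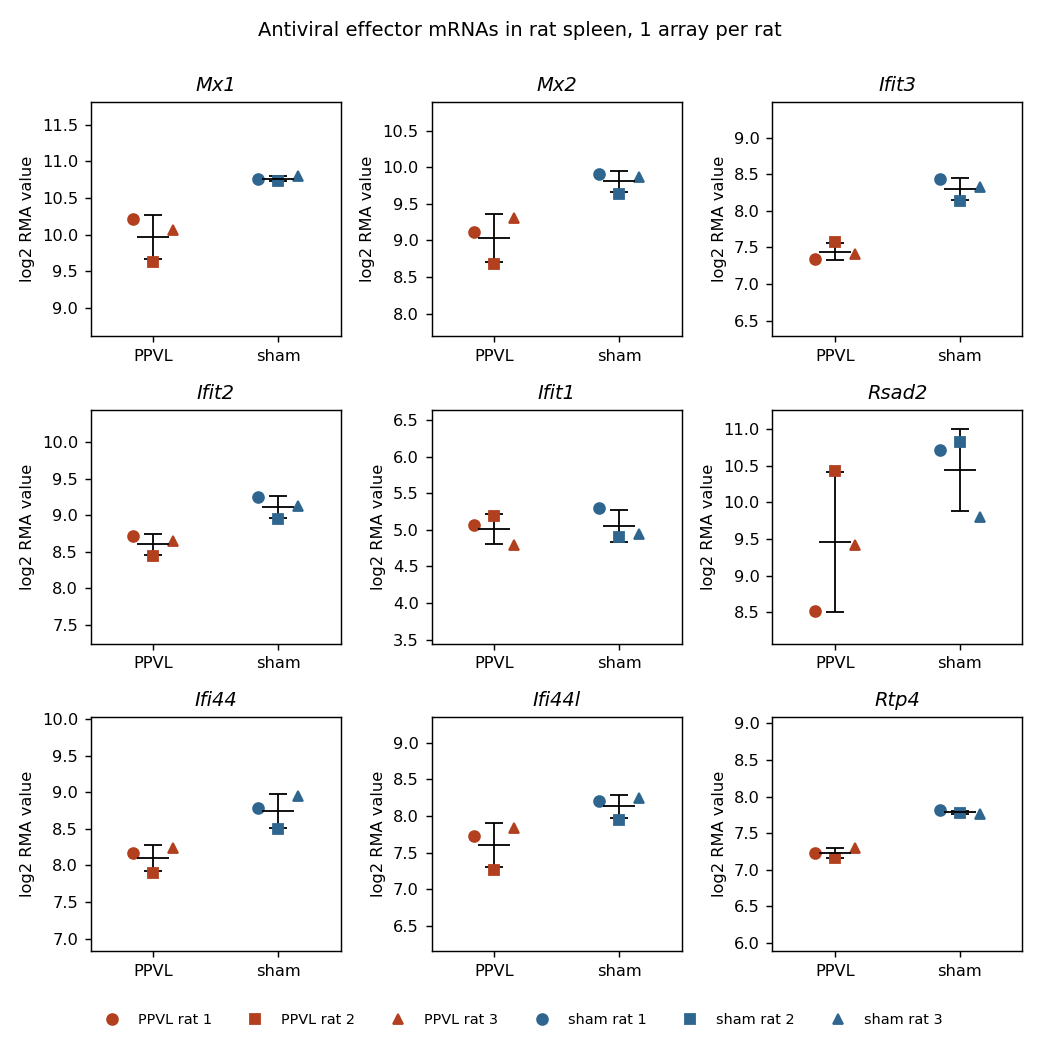
Log2 RMA value of each of the 9 measured effectors in each rat, with a marker shape for each rat number and the mean and SD of 3 rats in black. The y axes span the same range of log2 values but start at different levels. The PPVL points lie below the sham points in 7 panels and overlap with them for Ifit1 and Rsad2.

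Mx1 and Mx2 encode dynamin-like GTPases that assemble around viral nucleocapsids and block their transport or transcription. Mx1 had log2 values of 10.21, 9.63 and 10.07 in PPVL rats 1, 2 and 3, against 10.76, 10.73 and 10.80 in sham rats 1, 2 and 3. The sham rats lay within 0.07 of each other and the PPVL rats were spread over 0.59, with every PPVL rat below every sham rat by 0.51 or more. The log2 difference was -0.79 (standard error 0.16, adjusted p = 0.981 in limma). Mx2 had 9.11, 8.68 and 9.31 in PPVL rats, against 9.91, 9.64 and 9.87 in sham rats. It showed the same separation, with PPVL rat 2 again the lowest of the PPVL spleens, and a log2 difference of -0.78 (standard error 0.17, adjusted p = 0.981). The log2 differences of Mx1 and Mx2 were set against each other array by array and were -0.01 apart (exact permutation p = 1, two-sided), which does not show that they were equal. Both genes lie near each other on rat chromosome 11 and have similar sequences, and whether their probes bind the other transcript was not tested.

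The Ifit genes encode proteins of tetratricopeptide repeats, which bind viral RNA or the translation machinery, and Ifit2, Ifit3 and Ifit1 lie in 1 cluster on rat chromosome 1. Of all effectors, Ifit3 had the smallest p, the third smallest among all 18166 genes. Its log2 values were 7.34, 7.57 and 7.41 in PPVL rats 1, 2 and 3, against 8.44, 8.14 and 8.32 in sham rats. The highest PPVL rat was 0.57 below the lowest sham rat, the widest gap among the effectors. Ifit3 averaged 7.44 ± 0.12 in PPVL spleens and 8.30 ± 0.15 in sham spleens (SD, n = 3 each), a log2 difference of -0.86 (standard error 0.11, adjusted p = 0.663 in limma). Ifit2 had 8.71, 8.44 and 8.65 in PPVL rats, against 9.25, 8.95 and 9.12 in sham rats. Its groups were apart by 0.25, and the log2 difference was -0.51 (standard error 0.12, adjusted p = 0.981).

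Ifit1, which in human cells binds the ends of viral RNA, had 5.07, 5.19 and 4.79 in PPVL rats, against 5.30, 4.90 and 4.95 in sham rats, and the groups overlapped. The log2 difference was -0.03 (95% interval -0.39 to 0.33, adjusted p = 0.996 in limma). Its mean level lay at percentile 28.5 of all clusters, a dim level at which a change in transcript may not be seen, so its values do not show whether it behaved like Ifit2 and Ifit3. Between those neighbours, compared array by array, the log2 difference of Ifit3 minus that of Ifit2 was -0.35. Ifit3 minus Ifit2 was -1.37, -0.87 and -1.23 in PPVL rats 1, 2 and 3, against -0.80, -0.82 and -0.80 in sham rats. The groups were thus only just apart, with an exact permutation p of 0.1 (two-sided, n = 3 each, the smallest possible) and 0.133 after adjustment over 4 pairs. The pairs were Mx1 with Mx2 and those among the Ifit genes, chosen after the values were seen, and the pairs with Ifit1 are not read because of its dim level. Ifit1bl, a close relative of Ifit1 in the same gene cluster, was on the list of Ifit relatives. No transcript cluster used here carried its symbol alone, so it was not read. The study itself, on the same arrays, reported it as lower in PPVL spleens, with the largest fold-change among its listed genes.

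Rsad2 encodes viperin, a radical SAM enzyme that converts CTP to a nucleotide which ends viral RNA chains. It had the largest mean difference of the 9 genes and also the largest spread. Its log2 values were 8.52, 10.43 and 9.42 in PPVL rats 1, 2 and 3, against 10.71, 10.82 and 9.80 in sham rats. PPVL rat 2 lay above sham rat 3, and the 3 PPVL rats covered 1.92 on the log2 scale. Rsad2 averaged 9.46 ± 0.96 in PPVL spleens and 10.44 ± 0.56 in sham spleens (SD, n = 3 each). The log2 difference of -0.99 (95% interval -2.17 to 0.19) did not pass the threshold (unadjusted p = 0.0871 and adjusted p = 0.981 in limma). It passed without PPVL rat 2, at -1.48, and without sham rat 3, at -1.31, and it was -0.52 and did not pass without PPVL rat 1.

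**Figure D2:**
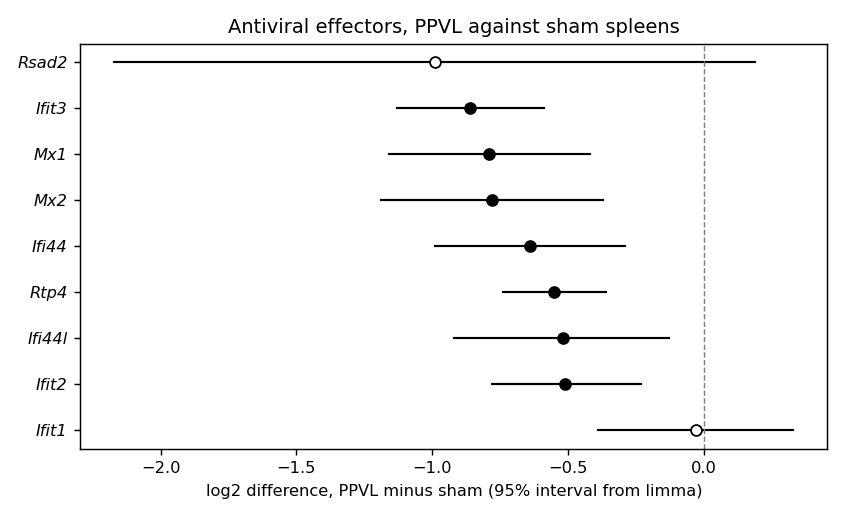
Log2 difference between PPVL and sham spleens for the 9 effectors, with 95% intervals from limma, ordered by size. Filled points are past an unadjusted p under 0.05. The intervals of Rsad2 (-2.17 to 0.19) and Ifit1 (-0.39 to 0.33) include 0, and that of Rsad2 is the widest.

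Ifi44 and Ifi44l are neighbouring genes on rat chromosome 2 for related cytoplasmic proteins, which in human cells have been described as modulators of the interferon response. Ifi44 had 8.17, 7.90 and 8.24 in PPVL rats, against 8.78, 8.50 and 8.95 in sham rats. All PPVL rats were below all sham rats, with a log2 difference of -0.64 (standard error 0.15, adjusted p = 0.981 in limma). Ifi44l had 7.72, 7.26 and 7.83 in PPVL rats, against 8.20, 7.95 and 8.24 in sham rats. The groups were apart by 0.12, the smallest gap among the 7 genes, and the log2 difference was -0.52 (standard error 0.17, adjusted p = 0.981). Ifi44l did not pass without sham rat 1, at -0.49, or without sham rat 3, at -0.47, and was -0.35 without PPVL rat 2.

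Rtp4 encodes a chaperone of G protein-coupled receptors that also binds viral RNA. It had 7.23, 7.16 and 7.30 in PPVL rats, against 7.81, 7.78 and 7.76 in sham rats. Replicates were tighter than for any other effector, with SDs of 0.07 in PPVL and 0.02 in sham spleens. The log2 difference was -0.55 (standard error 0.08, adjusted p = 0.827 in limma), the sixth smallest p among all genes.

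The lowest rat of each group was the same for most of the 7 lower genes, while the order of the other rats differed between genes. PPVL rat 2 was the lowest PPVL spleen for 6 of them, all but Ifit3, and sham rat 2 was the lowest sham spleen for 6 of them, all but Rtp4. Rsad2 ran the other way, with PPVL rat 2 and sham rat 2 the highest of their groups. The genes outside the 9 whose values followed the mean of the effectors most closely over the 6 rats were Atg12, Slu7, Mpped2, Sltm, Mir3573, Cd70, Commd10, Stfa2l1, Ing2 and RT1-M1-2, with Pearson's r of 0.973 to 0.997 over 6 arrays, as a description. That mean was taken over all 9 genes without scaling. Rsad2, which covered 2.30 on the log2 scale over the rats, weighed heavily in it, so r does not describe the 7 lower genes alone. Atg12, which encodes a conjugation protein of autophagy, followed this mean at 0.997 but spanned only 0.11 on the log2 scale over the rats. Once the group means were removed, r lay between 0.41 and 0.95 for 9 of the 10 genes and was -0.20 for Stfa2l1. The points share their groups and their normalization.

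The rest of the interferon pathway was read from 8 lists of 100 genes, of which 82 were measured. In PPVL spleens 29 of the 82 fell at the unadjusted threshold and 1 rose, beside 1.55% and 2.69% of all genes. Of 8 genes of the ISG15 system and interferon-induced PARPs, all 8 were lower, with a median log2 difference of -0.52. They included Isg15 itself, a ubiquitin-like modifier, with 7.09, 6.61 and 7.37 in PPVL rats against 8.26, 8.22 and 7.87 in sham rats. Usp18, which removes ISG15 and restrains the interferon receptor, fell by 0.57 on the log2 scale (standard error 0.10), Herc6, an ISG15 ligase, by 0.71 (standard error 0.16) and Parp9 by 0.40 (standard error 0.09).

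Of 11 oligoadenylate synthetase genes, 6 were lower and 0 higher, with a median of -0.48. Those that did not pass were Oas1k (-0.48) and Oas1d, Oas1e, Oas1f and Oas1h. The latter lay at percentiles 14.5 to 27.8 of all clusters, dim levels at which a change may not be seen. Oas1b, Oas1i, Oasl2 and Oas2 had log2 differences of -1.02, -0.80, -0.62 and -0.74. The Oas1 genes are close copies of each other, so how far their probes read single genes is uncertain. Of 9 nucleic acid sensors and adaptors, 3 were lower, namely Dhx58 (-0.90), Ifih1 (-0.48), both RNA helicases of the RIG-I family, and Zbp1 (-0.49), a sensor of Z-form nucleic acid. The other 6, among them Tlr7, Tlr3, Mavs and Sting1, did not pass, and the median was -0.13. Of 22 other antiviral restriction factors, 7 were lower and 1 was higher, with a median of -0.17. Ifi27 fell by 0.40, Xaf1 by 0.41 and Epsti1 by 0.30, and Ch25h, which makes 25-hydroxycholesterol, rose by 0.60 (standard error 0.14, adjusted p = 0.981 in limma). Of 8 GBP and IRG GTPases, which are induced mainly by interferon γ, Gbp6 (-0.49) and Irgm (-0.32) were lower, and Igtp (-0.20) and Gbp7 (-0.27) did not pass.

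Upstream of the effectors, of 15 genes for interferon receptors, JAK kinases, STATs, IRFs and their inhibitors, 2 were lower and 0 higher, with a median of 0.07. Irf7, the regulator that amplifies type I interferon production and is itself induced by interferon, had 9.72, 9.93 and 9.85 in PPVL rats, against 10.81, 10.92 and 10.20 in sham rats. Irf9 had 9.50, 9.44 and 9.48 in PPVL rats, against 9.81, 9.83 and 9.80 in sham rats. The groups were apart in both genes. Stat2, the partner of Irf9, had a log2 difference of -0.10 (standard error 0.10), and Ifngr1, a chain of the interferon γ receptor, one of 0.18 (standard error 0.08), and neither passed. Of 9 interferon genes, Ifng alone passed, with 5.76 ± 0.21 in PPVL rats and 6.15 ± 0.07 in sham rats (SD, n = 3 each), and all PPVL rats lay below all sham rats. Ifnb1, which encodes interferon β, had 5.17, 5.11 and 5.32 in PPVL rats against 5.06, 5.10 and 5.06 in sham rats. All PPVL rats lay above all sham rats, if only just, and it did not pass. Its mean level lay at percentile 30.3 of all clusters and that of Ifng at percentile 44.7. The 9 interferon genes ranged from percentile 10.5 (Ifna16l1) to 61.9 (Ifnl3). At the dim levels of this range a change may not be seen, so these values do not show that the interferon genes were unchanged. The adjusted p of every gene named from these lists was 0.663 or above in limma.

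**Figure D3:**
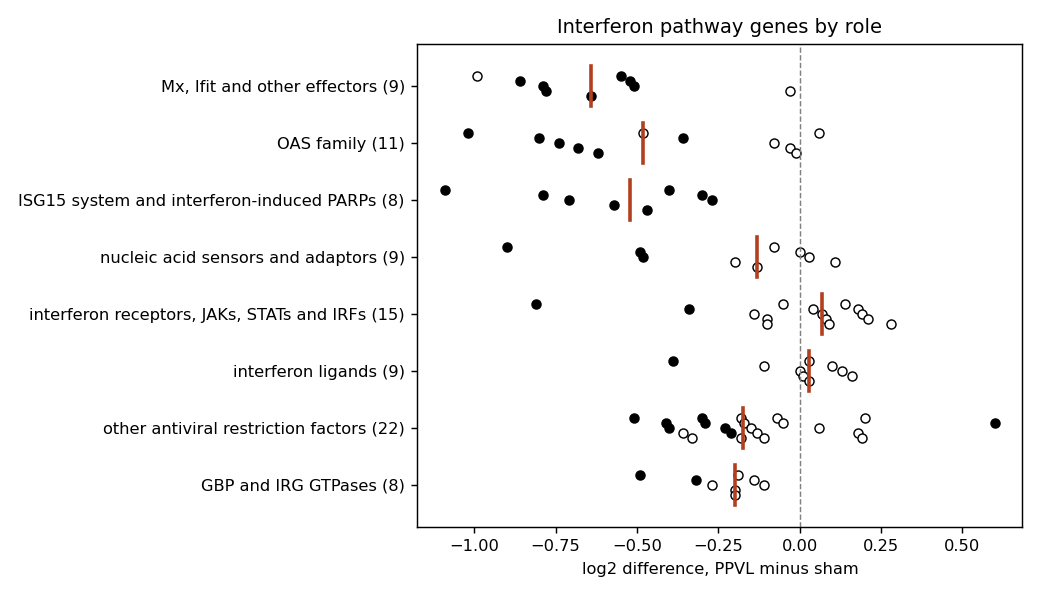
Log2 difference between PPVL and sham spleens for the 9 effectors and for the 82 other interferon pathway genes, by role, with the number measured in parentheses. Filled points are past an unadjusted p under 0.05 and the coloured bar is the median, which lies at -0.64 for the effectors, at -0.48 and -0.52 for the oligoadenylate synthetases and the ISG15 system, and at 0.07 and 0.03 for the receptors and signaling genes and for the ligands. Several ligands and oligoadenylate synthetases were dim, at levels where a change may not be seen.

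Promoter windows were at hand for 80 genes of these lists, and 37 of them (46.2%) held the response element motif in at least 1 window, against 4.12% of all 27457 genes with a window. Among the lists the share ran from 14.3% of 14 receptor and signaling genes to 88.9% of 9 GBP and IRG GTPases, leaving aside Ifit1bl, the single Ifit relative with a window. The oligoadenylate synthetases (50% of 10) and the ISG15 system (42.9% of 7) lay between them. These lists were drawn up as interferon genes, so a high share describes the lists.

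In whole tissue, fewer cells of a type and less RNA per cell cannot be told apart, and markers of the cell types of the spleen were read beside the effectors. Natural killer cell markers moved with the groups. Of 8 such genes, 4 were lower (Gzmb, Klrk1, Prf1 and Gzma) and 0 higher, beside 1.55% and 2.69% of all genes, and the mean log2 level of the 8 was 7.89 to 8.06 in PPVL rats, against 8.16 to 8.46 in sham rats. Gzmb, the dimmest of the 8, averaged 5.14, at percentile 30.3 of all clusters. Ncr1, which defines the type, had a log2 difference of -0.07 and did not pass, nor did Klrd1 (-0.29), Nkg7 (-0.21) and Eomes (-0.23). Stromal markers moved the other way, with 5 of 7 higher, beside 2.69% of all genes, and mean levels of 8.97 to 10.01 in PPVL rats, against 8.21 to 8.99 in sham rats, which overlap slightly. The level of 10.01 was that of PPVL rat 1, the rat with high exocrine pancreas genes, and PPVL rats 2 and 3 had 9.15 and 8.97. The part of natural killer or stromal cells in the effectors' difference was not tested. Of 6 plasmacytoid dendritic cell markers, a cell type known for high interferon production, 0 passed in either direction, with mean levels of 7.49 to 7.69 in PPVL rats against 7.51 to 7.60 in sham rats. Of 5 B cell and 8 T cell markers, 0 passed, and of 13 macrophage and monocyte markers 1, Siglec1, was higher. Siglec1, a lectin of metallophilic macrophages that interferon can also induce, had 10.07, 9.96 and 10.12 in PPVL rats against 9.76, 9.95 and 9.64 in sham rats. Of 8 neutrophil, 5 plasma cell, 4 megakaryocyte and 2 endothelial markers, 0 passed. Over all 89 markers 4 were lower, and this count was 1 without sham rat 1, 2 without PPVL rat 3 or sham rat 2, and 15 without PPVL rat 2, where 503 of all 18166 genes were lower, against 281 with all rats. The 6 higher markers were 3 without sham rat 1 and 2 without sham rat 3.

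Erythroid markers and markers of dividing cells varied between rats in the way Rsad2 did. The mean of 6 erythroid markers was 8.61, 10.39 and 9.57 in PPVL rats 1, 2 and 3, against 10.42, 10.44 and 9.44 in sham rats. The mean of 6 markers of dividing cells was 8.38, 9.53 and 8.93 in PPVL rats, against 9.74, 9.69 and 9.02 in sham rats. In both lists, as for Rsad2, PPVL rat 1, the rat with high exocrine pancreas genes, was the lowest of all rats. PPVL rat 2 and sham rats 1 and 2 were the 3 highest. In both lists 0 genes passed the threshold in either direction. The 10 genes that followed Rsad2 most closely over the 6 rats, a ranking added after its values were seen, were Bub1, Hba-a3, Uros, Mkrn1, Traip, Fam111a, Cdca3, Kif11, Ccnb1 and Bex4, with Pearson's r of 0.993 to 0.997 over 6 arrays, as a description. Bub1, Kif11 and Ccnb1 act in mitosis, Hba-a3 is a globin gene and Uros encodes an enzyme of heme synthesis. With the group means removed, r was 0.99 to 1.00. Mx1 did not share this order, since PPVL rat 2, with erythroid markers close to those of sham rats 1 and 2, had the lowest Mx1 value of all rats, and sham rat 3, with erythroid markers below those of PPVL rat 3, had the highest. The part of erythroid or dividing cells in the Rsad2 values was not tested.

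**Figure D4:**
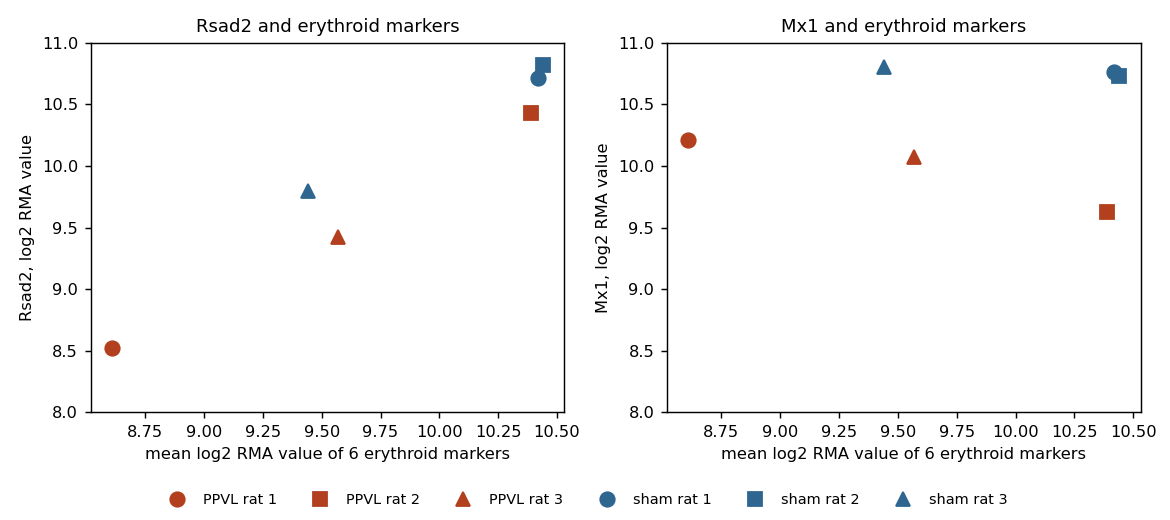
Log2 RMA values of Rsad2 (left) and Mx1 (right) in each rat against the mean log2 value of 6 erythroid markers. Rsad2 lay between 8.52 and 10.82 and was lowest in PPVL rat 1, the rat with the lowest erythroid markers, while all Mx1 values of PPVL rats lie below those of sham rats.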

How the data were processed

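Total RNA of 3 PPVL and 3 sham spleens was hybridised to Affymetrix whole-transcript rat arrays, 1 per rat. The authors summarised probe sets by RMA in Transcriptome Analysis Console and deposited log2 values for 36685 transcript clusters, with 0 missing. The genome build of the array annotation is not given in the sources used here. Precision is limited by having 3 arrays in each group. Of the clusters, 18511 carried 1 gene symbol in the platform annotation, updated by Entrez identifier (18394 matched) with the RefSeq table of GRCr8. Each of 18166 genes was represented by its brightest cluster. PPVL was compared with sham on all clusters with lmFit and eBayes of limma (version 3.58.1, R 4.3.3), with no covariate, at an unadjusted p under 0.05 as in the study's methods, and p-values were adjusted by Benjamini-Hochberg over all genes. Adjusted over all clusters, the smallest value among the 9 genes was 0.753. The script was tested on simulated data. Promoter windows came from RefSeq (GRCr8).

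The members and lists were chosen with earlier results of these data known, so their direction is not independent evidence. All measured members are named, with up to 4 genes of smallest p from each pathway list, Irf7, Irf9, Stat2, Ifnb1, Ifng and Isg15, and the 10 genes most like the members' mean. Other genes given with a value were chosen after their values were seen. The alternatives tried were a block for the replicate number, leaving out each rat, median centring, quantile normalization, a filter below the 40th percentile of mean level, only clusters with 1 symbol, a variance trend, a robust prior, array weights and the mean of a gene's clusters.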

Additional observations from a re-analysis of the deposited data

How the results depend on the processing

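Of the 9 effectors, between 6 and 8 were lower under the 15 alternatives (7 as reported). Mx1, Mx2, Ifit2, Ifit3, Ifi44 and Rtp4 kept their direction and stayed past an unadjusted p under 0.05 in all 15, at log2 differences of -0.94 to -0.43 over these genes. Ifi44l lost the threshold without sham rat 1 or sham rat 3, and Rsad2 passed it without PPVL rat 2, without sham rat 3 and with array weights (-1.20). Ifit1 ranged from -0.11 to 0.09 when a rat was left out, with 0.08 without PPVL rat 3 and 0.09 without sham rat 1, and was left out of the fit by the filter on dim clusters. Adjusted p-values of Ifit3 lay between 0.201 and 1 over the alternatives. The median of all genes was 0.01 after median centring or quantile normalization. Of the 82 other pathway genes, 21 to 30 were lower (29 as reported), 21 to 28 of them when a rat was left out. Higher were 1 as reported, 1 to 3 when a rat was left out, 3 with a variance trend and 2 with array weights or only clusters with 1 symbol. Of 89 cell type markers, 4 were lower as reported, 7 with only clusters with 1 symbol and 1 to 15 when a rat was left out, 15 without PPVL rat 2, 2 without PPVL rat 3 or sham rat 2 and 1 without sham rat 1. Higher were 6 markers, 2 to 9 when a rat was left out, 3 without sham rat 1 and 2 without sham rat 3. Over all genes, 503 were lower without PPVL rat 2 and 168 without PPVL rat 1 (281 as reported). The replicate number as a block left 7 effectors, 26 pathway genes and 5 markers lower. Same-numbered rats deviated together only weakly (correlations of -0.13, 0.14 and 0.12), so the numbers were not taken to pair the rats.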
